A study of Mus musculus with 9 samples.

Results

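The 34 genes described here are mouse genes of the interferon response and of antigen presentation, measured in eWAT, the epigonadal depot of white fat, which in females lies next to the ovary and the uterine horns. They were taken by gene symbol from a list of 34 symbols, whatever their level. Each of the 34 matched exactly 1 of the 53700 gene IDs in the table, and all 34 passed the filter on low counts, which kept 17876 genes. By role they were divided into 18 genes of the type I interferon response, 5 genes of the interferon gamma response, 6 genes of major histocompatibility complex (MHC) class I presentation and 5 genes of MHC class II presentation.

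RNA was sequenced from the eWAT of 9 female NSG mice at week 12, with 1 library per mouse and 3 mice per group. NSG mice (NOD/SCID/IL2Rγ-null) lack T, B and natural killer cells, and this genotype was shared by all 3 groups, although the labels write Wild Type. The untreated group held mice 4, 7 and 10. The EV group held mice 36, 37 and 41, which were injected by tail vein with extracellular vesicles (EVs) that MDA-MB-231 cells, a human line of triple-negative breast cancer, had shed (10 injections in 5 weeks). The tumour bearing group held mice 17, 21 and 22, which carried an orthotopic tumour of the same cells, so tumour and host differ in species. The labels give no age and call the controls untreated, whereas in the study tumour-free and PBS-injected controls are mentioned, and no library of mice injected with other vesicles was analysed here. The comparisons ask whether vesicles or a tumour changed these genes in the fat pad.

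Type I interferons signal through a receptor whose kinases activate a complex that holds Stat2 and Irf9 and binds the interferon-stimulated response element (ISRE) in front of antiviral genes such as Ifit1, Isg15 and the Oas family. Interferon gamma uses a separate receptor, acts through the gamma-activated site (GAS), and raises Irf1, the guanylate binding proteins, the chemokines Cxcl9 and Cxcl10, and, through the coactivator Ciita, MHC class II. MHC class I (H2-K1 and H2-D1 with B2m) shows peptides made by the immunoproteasome (Psmb8, Psmb9) and carried by the transporter Tap1 on nearly every cell, while class II (H2-Aa, H2-Ab1, H2-Eb1 with the chaperone Cd74) is made mainly by macrophages, dendritic cells and B cells. In adipose tissue of mice without lymphocytes, macrophages and dendritic cells are therefore possible main sources of class II, and its source was not tested here.

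The libraries held 20097743 to 26149300 counts, and their tissue makeup crossed the groups. The summed level of 8 ovary markers ranged from 4.98 to 14.1 CPM (counts per 1e6 counts, library sizes scaled by TMM) in 6 libraries, whereas untreated 10, EV 36 and EV 41 held 2695 to 5806 CPM. Untreated 7 held the most smooth muscle transcripts (15050 CPM over 6 markers) and oviduct and uterus epithelium transcripts (2385 CPM over 6 markers) and the fewest adipocyte transcripts (2189 CPM over 8 markers). The adipocyte sum was 42850 to 65470 CPM in untreated 4, EV 37 and the 3 tumour bearing libraries, whereas the 3 libraries with ovary transcripts had 5538 to 11930 CPM. Skeletal muscle markers were at 2088 to 5362 CPM in the tumour bearing libraries and at 7.63 to 378.8 CPM in the others. Of 10 lymphocyte markers, 8 were under 1 CPM in all 9 libraries, and Cd4, which macrophages can also carry, was at 1.66 to 13.5 CPM.

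None of the 34 genes passed the test in any of the 3 comparisons. With edgeR's quasi-likelihood test and a Benjamini-Hochberg adjusted p under 0.05, 0 of 34 were called for EV versus untreated, where 0.00559% of all genes tested were called (1 of 17876), 0 of 34 for tumour bearing versus untreated (background 0.218%, 39 genes) and 0 of 34 for tumour bearing versus EV (background 0.257%, 46 genes). At an unadjusted p under 0.05 the counts were also 0 of 34 in each, against 1.19%, 11.9% and 14.1% of all genes. DESeq2 called 0 of 34 in each comparison, where it called 0.0533%, 2.43% and 2.92% of all genes, and limma on the deposited TPM columns called 0 of 34 in each, where it called 0.0372%, 0.00621% and 0.0496%. Both tools also had 0 members at an unadjusted p under 0.05. The smallest edgeR adjusted p of any of the 34 genes was 1.00 for EV versus untreated, 0.438 (Ciita) for tumour bearing versus untreated and 0.392 (Psmb8) for tumour bearing versus EV. The standard errors of the log2 fold changes ran from 0.35 to 1.32 over the 34 genes and the 3 comparisons.

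**Figure D1:**
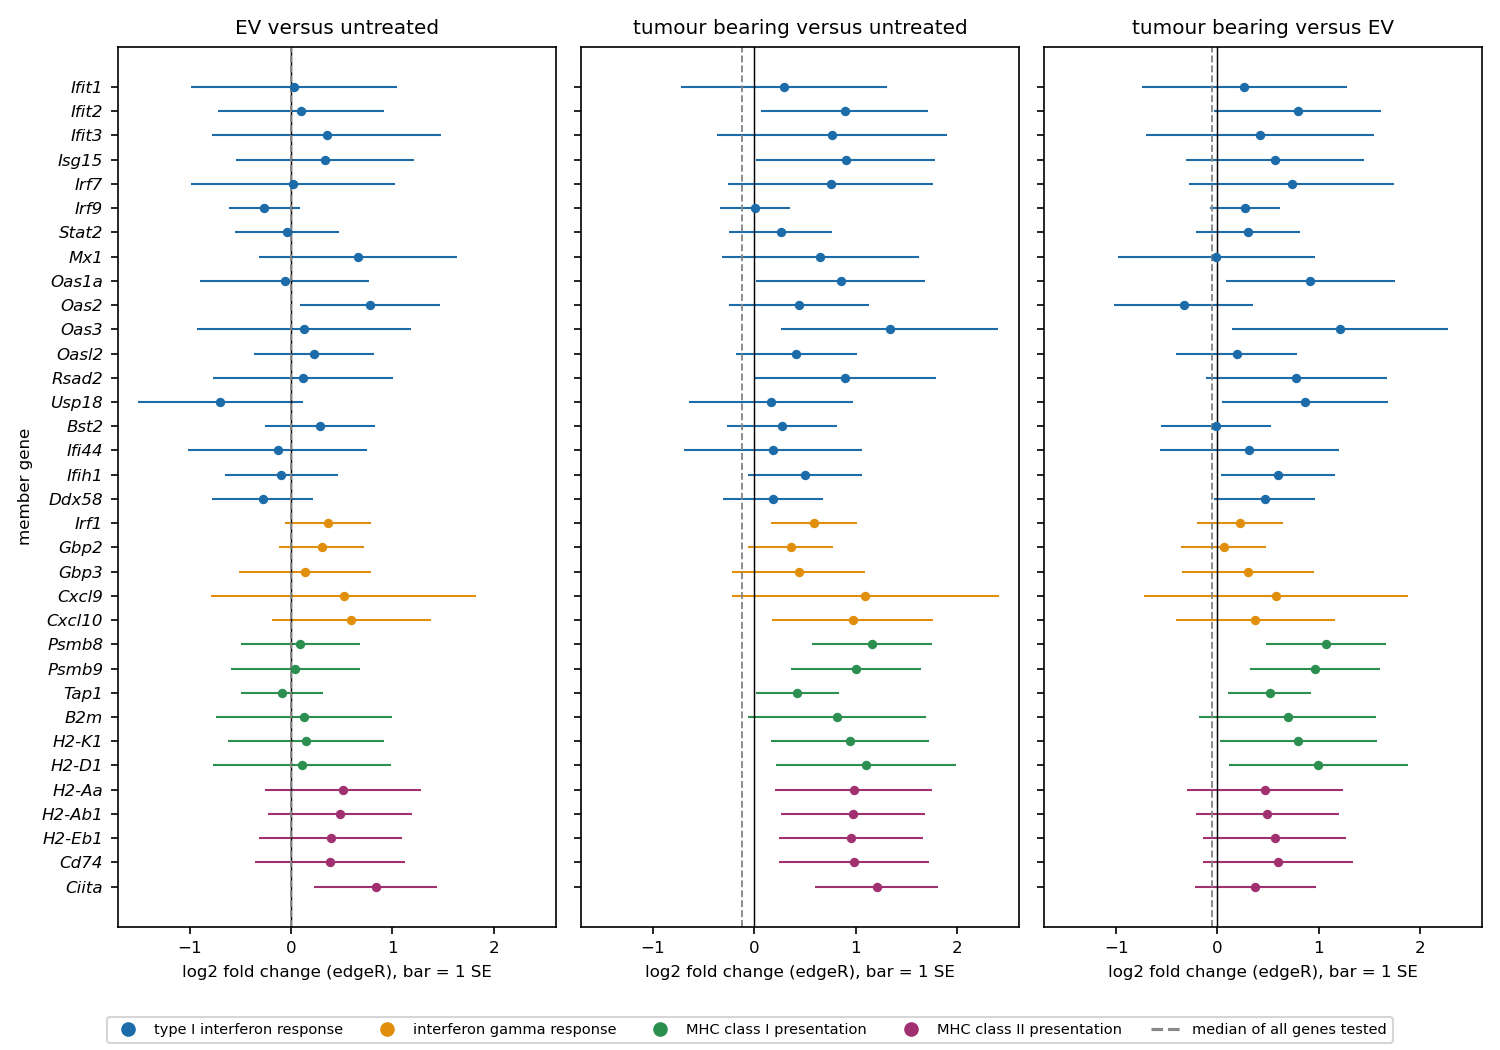
Log2 fold changes of the 34 genes in the 3 comparisons (points, edgeR, 3 mice per group; bars are 1 standard error), coloured by class, with the median of all 17876 genes tested as a dashed line. No gene passed the test, and for tumour bearing versus untreated all 34 points lie at or above 0, from 0.01 (Irf9) to 1.33 (Oas3).

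The fitted values were mostly above 0 in tumour bearing mice without reaching the threshold, and this depended on the setting. For tumour bearing versus untreated, the median log2 fold change was 0.47 over the type I genes, 0.59 over the interferon gamma genes, 0.97 over the class I genes and 0.98 over the class II genes, where the median of all genes tested was -0.12. All 34 fitted values were above 0 with TMM scaling, 33 with the size factors of DESeq2 and 29 with library totals alone, which moved the median of all genes to -0.45. With limma on the columns named TPM, 23 of 34 were above 0, at a median of 0.20 beside 0.21 over all genes. With 3 batches inferred in earlier work as a term, 12 of 34 were above 0, at a median of -0.45 beside -0.10. Tumour bearing 21 alone set the tumour bearing level in that batch fit, because tumour bearing 17 and 22 formed a batch of their own. For EV versus untreated the 4 medians were 0.06, 0.37, 0.10 and 0.48, beside -0.00 over all genes, and for tumour bearing versus EV they were 0.44, 0.30, 0.88 and 0.49, beside -0.06. The 3 comparisons share their libraries pair by pair and are not independent of each other.

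These medians rested on which libraries were in each group. Without EV 37 the EV versus untreated medians were -1.07 for type I, -0.47 for interferon gamma, -0.88 for class I and -0.58 for class II, and 3 of 34 fitted values were above 0 in place of 26. Without the 3 ovary-containing libraries, the tumour bearing versus EV medians were -0.40, -0.68, -0.17 and -0.49, and 2 of 34 values were above 0 in place of 31, with EV 37 as the only EV library. Without EV 37 the same comparison moved the other way, to 1.78, 1.40, 1.89 and 1.56 with 34 of 34 values above 0. Without the 3 ovary-containing libraries and untreated 7, the tumour bearing versus untreated medians were 0.17, -0.07, 0.03 and 0.07, beside 0.02 over all genes. Untreated 4 was then the only control library. The part of tissue makeup in the group values was not tested beyond these refits.

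The larger differences lay between mice of the same group. The highest library exceeded the lowest by 2.29-fold (Irf9) to 21.2-fold (Cxcl9) over the 34 genes, with a median of 6.19-fold. EV 37 was the highest of the 3 EV mice in all 34 genes, with a median of 4.28 times the mean of EV 36 and EV 41. Among all genes tested, EV 37 was the highest of the 3 in 40.2%, at a median of 0.919 times that mean. EV 37 was also the highest of all 9 libraries in 19 of the 34 genes, and untreated 10 was the lowest in 15. The shares over all genes tested were not computed for these counts, so whether they are unusual is not known. The heat map of the members shows a split at tumour bearing 21, where the type I genes were low and the MHC genes other than Ciita were not.

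**Figure D2:**
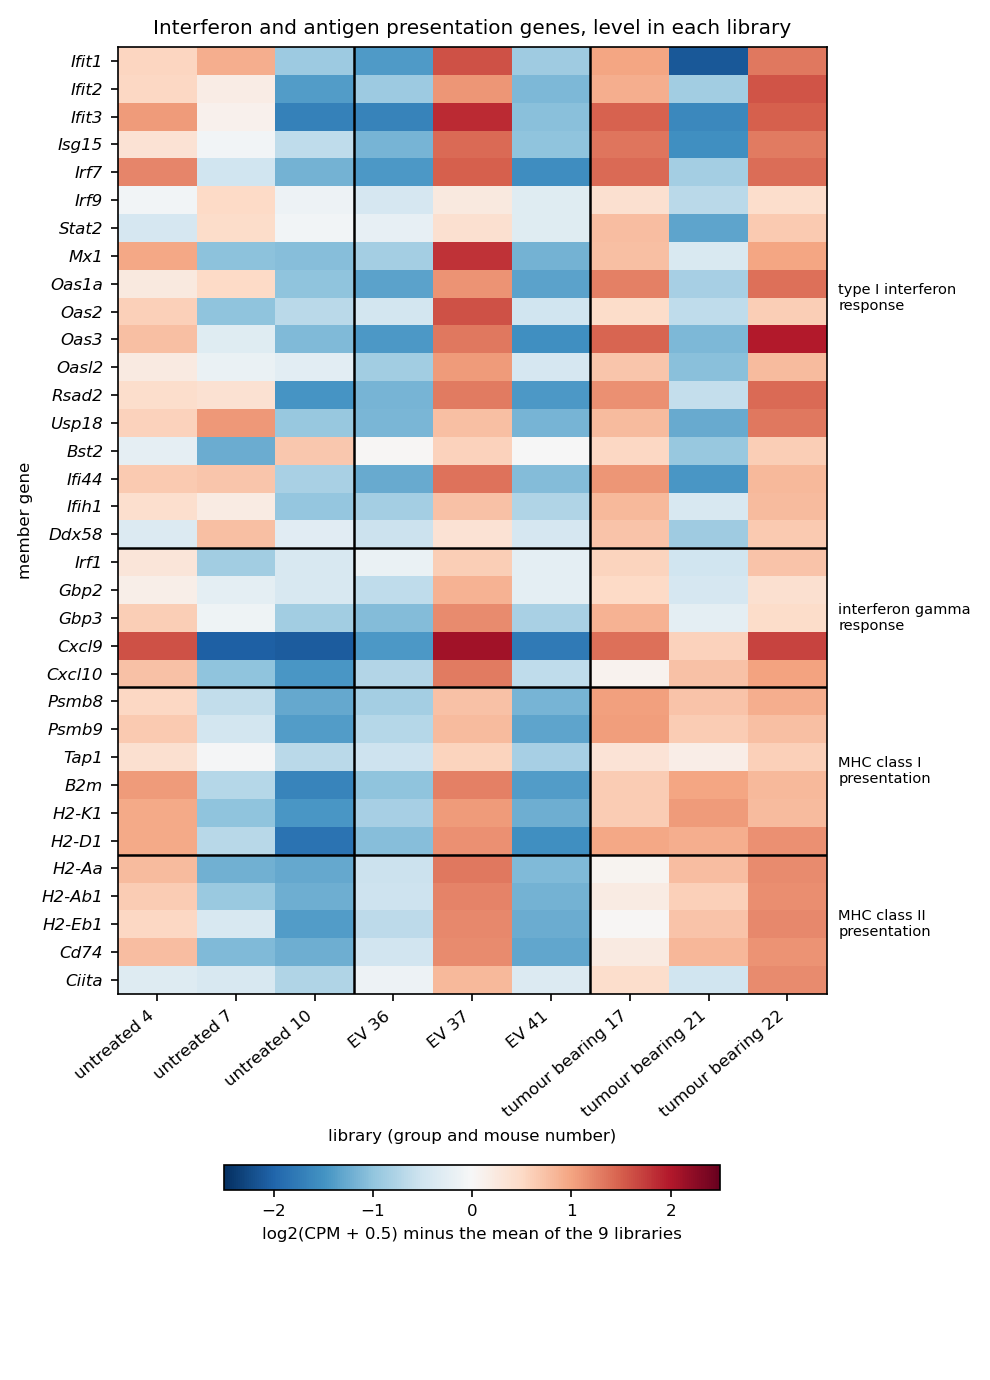
Level of each of the 34 genes in each of the 9 libraries, as log2(CPM + 0.5) minus that gene's mean over the libraries (red higher, blue lower); horizontal lines separate the 4 classes and vertical lines the 3 groups. Tumour bearing 21 is blue throughout the type I block and mostly red in the 2 MHC blocks, and EV 37 is red in every row.

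Among the antiviral effectors, Ifit1, which binds foreign RNA and blocks its translation, was at 42.3, 54.5 and 15.2 CPM in untreated 4, 7 and 10, at 10.5, 88.4 and 15.5 CPM in EV 36, 37 and 41, and at 57.7, 6.26 and 73.2 CPM in tumour bearing 17, 21 and 22. Each group thus held both high and low mice, and the lowest of all 9 was a tumour bearing one. The fitted change for tumour bearing versus untreated was 0.29 ± 1.01 (log2, SE, n = 3 per group; edgeR adjusted p = 0.900). Ifit3, its partner protein, was at 154, 79.3 and 22.4 CPM in the untreated mice, at 22.5, 268 and 35.1 CPM in the EV mice and at 205, 23.5 and 207 CPM in the tumour bearing mice. Tumour bearing 21 was level with untreated 10 and EV 36, and the mean of the other 2 tumour bearing mice was 8.77-fold higher. Ifit2, of the same family, was at 30.5, 24.1 and 7.66 CPM, at 11.0, 46.2 and 9.41 CPM and at 40.04, 11.4 and 64.0 CPM in the same order of mice.

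The oligoadenylate synthetases sense double-stranded RNA and activate RNase L, and Oas3 had the smallest p-value of the type I class. Oas3 was at 12.3, 5.60 and 3.02 CPM in untreated 4, 7 and 10, at 2.29, 18.4 and 2.12 CPM in EV 36, 37 and 41, and at 20.3, 2.96 and 29.4 CPM in tumour bearing 17, 21 and 22. Its groups overlapped in every comparison, with tumour bearing 21 below untreated 10 and EV 37 above all 3 untreated mice, and the change for tumour bearing versus untreated was 1.33 ± 1.07 (log2, SE; edgeR adjusted p = 0.570). Oas1a was at 25.6, 30.6 and 10.5 CPM, at 8.24, 47.3 and 8.24 CPM and at 52.0, 11.9 and 56.4 CPM in the same order, low in untreated 10, EV 36, EV 41 and tumour bearing 21 as Oas3 was. Oas2 was at 46.4, 14.9 and 18.8 CPM, at 22.1, 93.3 and 21.4 CPM and at 41.9, 19.5 and 47.2 CPM, where untreated 7 and not tumour bearing 21 was lowest. Reads of Oas1a and of the Ifit genes can be shared with near-identical copies, so their split by the estimated counts is uncertain. Ifit3b, a copy of Ifit3, kept a ratio of 3.02 to 5.01 (Ifit3 to Ifit3b) over the 9 libraries.

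Of the regulators, Irf7, the factor that switches on the interferon alpha genes, was at 205, 62.0 and 38.7 CPM in the untreated mice, at 32.3, 248 and 29.8 CPM in the EV mice and at 235, 48.4 and 232 CPM in the tumour bearing mice. Irf7 was therefore high in the 2 tumour bearing mice and the EV mouse in which Ifit3 was high, and in untreated 4. Isg15, a ubiquitin-like protein attached to other proteins in the response, was at 28.6, 21.2 and 14.0 CPM, at 9.64, 60.0 and 10.8 CPM and at 56.5, 7.36 and 55.4 CPM. Usp18, the protease that removes Isg15 and damps the receptor, was at 35.2, 50.4 and 11.8 CPM, at 10.2, 39.6 and 10.1 CPM and at 40.5, 9.50 and 59.1 CPM. Both had their lowest value of the 9 in tumour bearing 21.

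All 18 type I genes were lower in tumour bearing 21 than in both other tumour bearing mice, where 38.2% of all genes tested were. In all 18 the mean of tumour bearing 17 and 22 was at least 2-fold above tumour bearing 21 (12.3% of all genes tested), by 2.17-fold (Irf9) to 10.5-fold (Ifit1) with a median of 4.35-fold. In 8 of the 18, tumour bearing 21 was the lowest of all 9 libraries, against 15.4% of all genes tested. The remaining members of the class, Mx1, Oasl2, Rsad2, Bst2, Ifi44, Ifih1, Stat2 and Ddx58, took part in this at 2.34-fold (Ifih1) to 5.64-fold (Ifi44). Tumour bearing 21 was singled out after its values were seen, and a single mouse carries no test. Of the marker lists, tumour bearing 21 had the highest summed level of 12 macrophage markers (3672 CPM, against 461 to 2513 CPM in the other 8) and an adipocyte sum of 51480 CPM, between those of tumour bearing 17 and 22. Among the tumour bearing mice it had the lowest sums of endothelial (828.6 CPM) and dendritic cell markers (109.5 CPM). The macrophage markers did not move together. Lyz2 (1439 CPM), Adgre1 (356 CPM), Itgam (180 CPM), C1qa, C1qb and C1qc were highest of the 9 in tumour bearing 21. Mrc1 (185 CPM), Cd163 (162 CPM) and Fcgr1 (15.1 CPM) were lower there than in both other tumour bearing mice. Cd68, Csf1r and Mpeg1 lay between tumour bearing 17 and 22. The dendritic cell markers did not move together either. Siglech, a marker of plasmacytoid dendritic cells, was lowest of the 9 in tumour bearing 21 (0.348 CPM, 6 counts). Batf3 (1.45 CPM) and Ccr7 (1.91 CPM) were highest of the 9 there. The skeletal muscle sum of tumour bearing 21 was the highest of the 9 at 5362 CPM. The part of these cells in the type I levels was not tested.

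**Figure D3:**
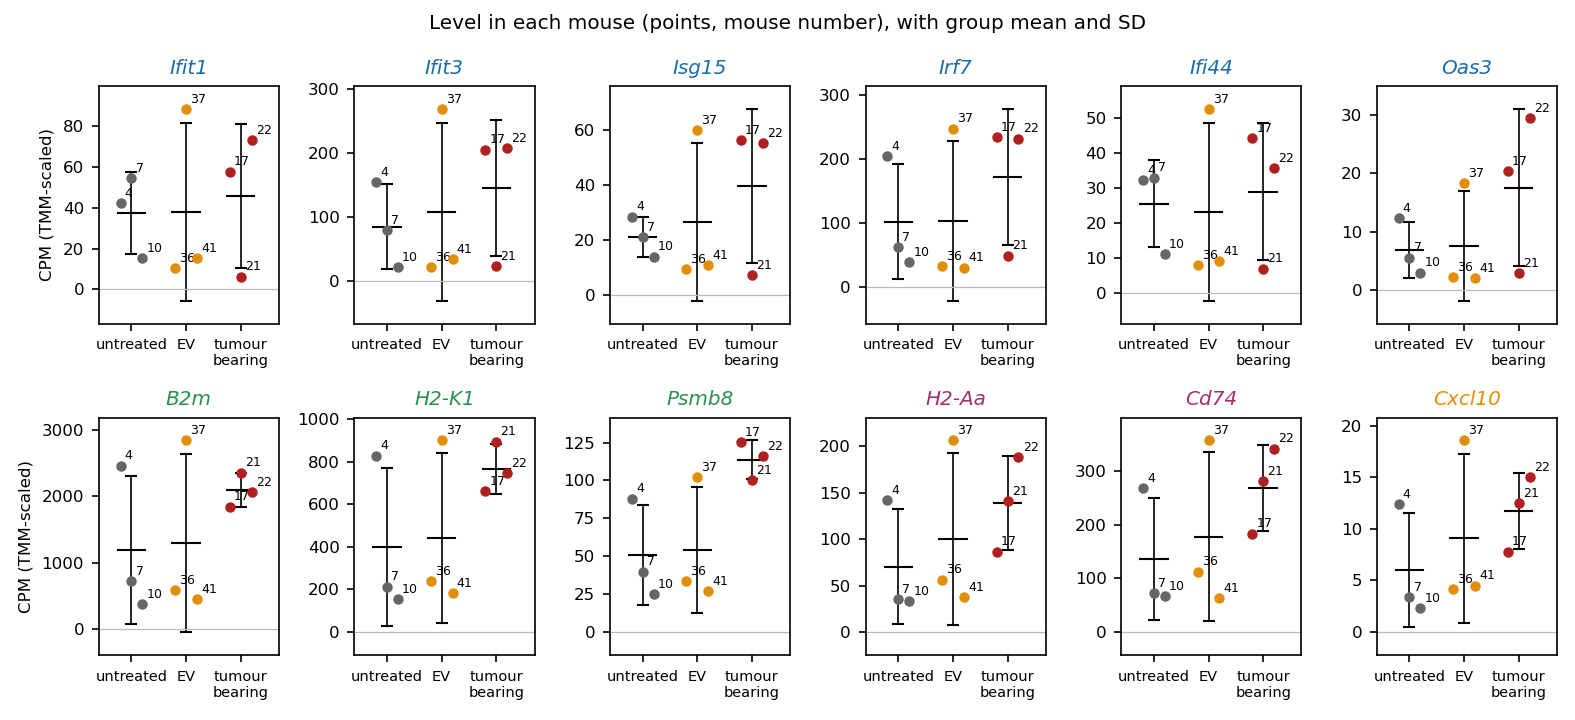
CPM of 12 of the 34 genes in each mouse (points with the mouse number), with the group mean and SD (n = 3), gene names coloured by class. The 6 type I genes of the upper row are low in tumour bearing 21, EV 36 and EV 41, whereas B2m, H2-K1, Psmb8, H2-Aa, Cd74 and Cxcl10 in the lower row are not low in tumour bearing 21.

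The type I class was not uniform in untreated mice. Untreated 7, poor in fat cell and rich in smooth muscle transcripts, was above untreated 4 in 7 of the 18 type I genes and in 0 of the other 16 members. With library totals alone the counts were 12 of 18 type I genes and 1 gene in each other class. Ddx58, the cytoplasmic RNA sensor RIG-I, was at 37.6, 81.3 and 38.9 CPM in untreated 4, 7 and 10, at 32.9, 61.6 and 35.4 CPM in EV 36, 37 and 41, and at 78.1, 25.4 and 75.9 CPM in tumour bearing 17, 21 and 22. Irf9, the DNA-binding partner of Stat2, had the smallest range of the 34 genes and was also highest in untreated 7, at 56.2 CPM against 24.6 to 54.0 CPM in the other 8 libraries. Bst2, the membrane protein tetherin that holds back budding virus, was low in tumour bearing 21 (55.7 CPM) but had its highest value in untreated 10 (173 CPM), where 4 other type I genes had their lowest, and its lowest in untreated 7 (45.6 CPM). The ratio of Irf7 to Ddx58 counts ranged 7.15-fold over the 9 libraries, from 0.763 in untreated 7 to 5.45 in untreated 4. Members of the class thus did not move in proportion.

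The interferon gamma genes lay between the 2 patterns. Irf1, a transcription factor induced early by interferon gamma, was at 59.3, 26.03 and 36.1 CPM in untreated 4, 7 and 10, at 42.4, 73.6 and 40.6 CPM in EV 36, 37 and 41, and at 70.6, 33.7 and 78.5 CPM in tumour bearing 17, 21 and 22. It was low in tumour bearing 21, by 2.21-fold from the mean of the other 2 tumour bearing mice. Cxcl9, a chemokine for T cells, was at 40.4, 2.80 and 2.72 CPM, at 4.55, 57.5 and 3.51 CPM and at 35.0, 19.7 and 43.3 CPM, the widest range of the 34 genes. Cxcl10, a chemokine of the same receptor, was at 12.4, 3.35 and 2.34 CPM, at 4.19, 18.6 and 4.50 CPM and at 7.78, 12.5 and 15.0 CPM, with tumour bearing 21 above tumour bearing 17. For both chemokines the 4 low libraries were untreated 7, untreated 10, EV 36 and EV 41. Gbp2 and Gbp3, interferon-induced GTPases, were highest in EV 37 at 107 and 79.8 CPM, and in tumour bearing 21 they were at 43.0 and 29.8 CPM. None of the 5 had an edgeR adjusted p below 0.536.

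MHC class I genes divided the libraries by another line. B2m, the light chain of every class I molecule, was at 2465, 724.5 and 375 CPM in untreated 4, 7 and 10, at 589, 2846 and 452 CPM in EV 36, 37 and 41, and at 1848, 2362 and 2069 CPM in tumour bearing 17, 21 and 22. The 3 tumour bearing mice, untreated 4 and EV 37 were at 1848 CPM or more and the other 4 libraries at 724.5 CPM or less. H2-D1, a classical heavy chain, was at 3235, 1043 and 471 CPM, at 809, 3723 and 584 CPM and at 3307, 3180 and 3711 CPM. H2-K1, the other heavy chain, was at 828, 213 and 156 CPM, at 240, 900 and 184 CPM and at 663, 894 and 746 CPM. Adipoq, the adipocyte hormone adiponectin, was at 4381, 131.5 and 334 CPM, at 727, 4422 and 633 CPM and at 4350, 2969 and 3592 CPM. The 5 libraries high in all 3 class I genes were the 5 with an adipocyte sum of 42850 CPM or more, and the 4 low ones were untreated 7 and the 3 that contained ovary. The level per fat pad is a mean over cells, so fewer cells of a type and less RNA per cell cannot be told apart in these bulk samples.

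Psmb8, a catalytic subunit of the immunoproteasome, was the only one of the 34 genes for which 2 groups did not overlap, and it did so in 1 of the 3 comparisons. It was at 88.0, 39.9 and 25.01 CPM in untreated 4, 7 and 10, at 33.7, 102 and 26.9 CPM in EV 36, 37 and 41, and at 125, 100.2 and 116 CPM in tumour bearing 17, 21 and 22. All 3 tumour bearing mice were above all 3 untreated mice, while EV 37 was above tumour bearing 21. The change for tumour bearing versus untreated was 1.16 ± 0.59 (log2, SE; edgeR adjusted p = 0.440). The background of such separation was 11.8% of all genes for tumour bearing versus untreated, 2.88% for EV versus untreated and 25.2% for tumour bearing versus EV, so 1, 0 and 0 of 34 did not exceed it. Psmb9, its partner subunit, was at 41.7, 19.1 and 9.66 CPM, at 16.0, 46.1 and 10.3 CPM and at 54.7, 41.5 and 45.1 CPM in the same order. Untreated 4 reached 41.71 CPM and tumour bearing 21 was at 41.48 CPM, so its groups just overlapped. Tap1, the peptide transporter subunit, had the narrowest range of the class, 21.5 CPM (EV 41) to 58.4 CPM (tumour bearing 22), and a change of 0.43 ± 0.41 (log2, SE; edgeR adjusted p = 0.628).

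Of the MHC class II genes, the 3 chains and Cd74 were high in the same 5 libraries as class I, with tumour bearing 17 the lowest of those 5. Cd74, the invariant chain that escorts class II molecules, was at 267, 73.0 and 67.0 CPM in untreated 4, 7 and 10, at 112, 356 and 63.4 CPM in EV 36, 37 and 41, and at 183, 281 and 341 CPM in tumour bearing 17, 21 and 22. H2-Ab1, a beta chain, was at 76.7, 25.5 and 20.8 CPM, at 34.1, 116 and 21.4 CPM and at 56.6, 74.2 and 111 CPM. H2-Eb1, the beta chain of the second class II molecule, was at 84.6, 44.4 and 21.9 CPM, at 37.3, 136 and 24.6 CPM and at 60.3, 97.2 and 136 CPM. In each of the 3 genes, untreated 4 lay above tumour bearing 17, so the groups overlapped. H2-Aa, an alpha chain, ran from 33.3 CPM in untreated 10 to 206 CPM in EV 37. The alpha chain of the second molecule, H2-Ea, which NOD mice are known not to express, was at 0 counts in all 9 libraries.

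Ciita, the coactivator without which class II genes are silent, had the smallest p-value of the 34 genes and a low level. It was at 1.96, 1.83 and 1.32 CPM in untreated 4, 7 and 10, at 2.33, 4.87 and 1.93 CPM in EV 36, 37 and 41, and at 3.64, 1.68 and 6.50 CPM in tumour bearing 17, 21 and 22. Tumour bearing 21 was within the untreated range although its Cd74 was at 281 CPM, and the change for tumour bearing versus untreated was 1.21 ± 0.61 (log2, SE; edgeR adjusted p = 0.438). Of the class II genes it was the only one lowest in tumour bearing 21 among the tumour bearing mice, by 3.02-fold from the mean of the other 2.

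Some pairs of genes within an MHC class varied little in proportion across libraries, although the levels of the genes in the next 4 ratios spanned 5.01-fold (Psmb8) to 7.59-fold (B2m). The pairs were chosen after values were seen, and Ciita and Tap1 are not among them. Counts are not corrected for gene length, so only the variation of a ratio is read here. The ratio of Cd74 to H2-Aa counts was 1.68 to 2.12 over the 9 libraries, that of H2-Aa to H2-Ab1 was 1.39 to 1.90, that of Psmb8 to Psmb9 was 2.09 to 2.61 and that of B2m to H2-K1 was 2.41 to 3.40. Across classes, the ratio of Ifit1 to B2m ranged 28.4-fold, from 0.00265 in tumour bearing 21 to 0.0752 in untreated 7. H2-D1 to H2-K1 ranged 1.65-fold, but these heavy chains share sequence with each other and with the H2-Q genes, and how the counts were split between them is uncertain.

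**Figure D4:**
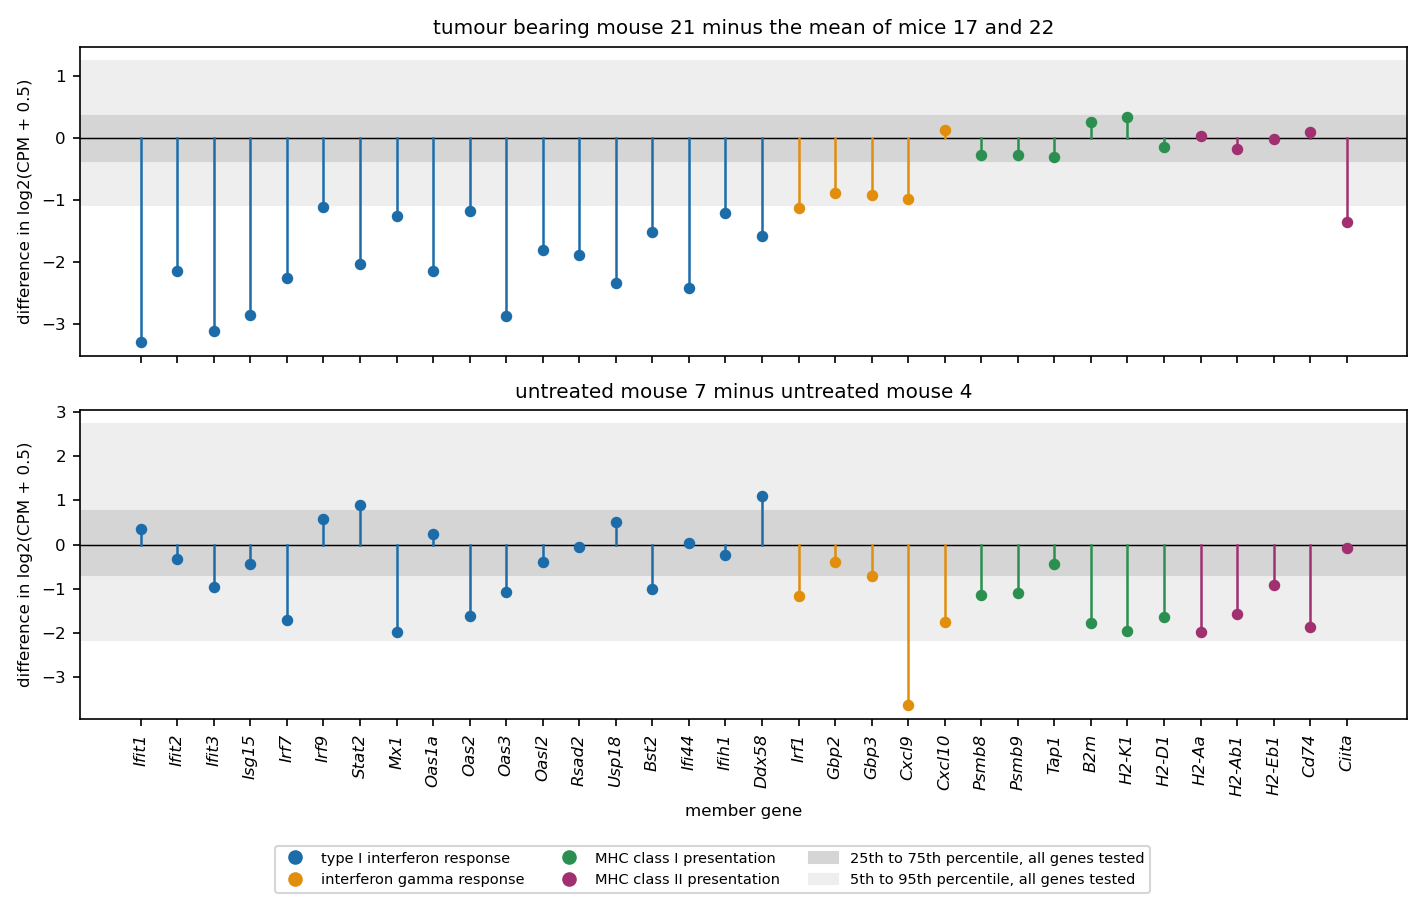
Difference in log2(CPM + 0.5) of each of the 34 genes between tumour bearing 21 and the mean of tumour bearing 17 and 22 (upper panel) and between untreated 7 and untreated 4 (lower panel); grey bands hold the middle 50% and 90% of all 17876 genes tested. The 18 type I genes lie below the lower band in the upper panel, and the class I and class II genes other than Ciita lie inside the inner band there, while all of these except Tap1 lie below the inner band in the lower panel.

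The division between classes is drawn most clearly by these within-group differences. Between tumour bearing 21 and the mean of tumour bearing 17 and 22, the median difference in log2(CPM + 0.5) was -2.08 over the 18 type I genes (range -3.29 to -1.10), -0.91 over the 5 interferon gamma genes, -0.20 over the 6 class I genes (range -0.31 to 0.34) and -0.01 over the 5 class II genes, where the 5th percentile of all genes tested was -1.08 and the median 0.00. Each of the 18 type I genes was among the lowest 4.64% of all genes tested by this difference. Between untreated 7 and untreated 4 the order was the other way round: the medians were -0.28 for type I, -1.17 for interferon gamma, -1.38 for class I and -1.57 for class II, with a 5th percentile of -2.15. These pairs of mice were chosen after their values were seen, and the values are a description of 5 libraries. Earlier work on these data inferred 3 batches from the columns named TPM, namely untreated 7, tumour bearing 17 with 22, and the other 6 libraries. No label gives a batch, and such a batch and the difference of tumour bearing 21 from the other 2 tumour bearing mice cannot be told apart. When these batches entered the fit, the class medians for tumour bearing versus untreated were -1.08 for type I and -0.29 for interferon gamma. They were 0.76 for class I and 0.69 for class II. In that fit, untreated 7 and tumour bearing 17 with 22 were batches of their own. The comparison therefore rested on tumour bearing 21 alone against untreated 4 and 10.

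The columns named TPM gave the same low values for type I genes in tumour bearing 21. All 18 were below both other tumour bearing mice there too, and Bst2 and Oas2 were listed at 0 in tumour bearing 21. Class I genes were below both in 6 of 6 in these columns, against 4 of 6 by counts, at 1.31-fold to 2.26-fold. The column totals themselves differed, at 704427 in tumour bearing 21 against 1281345 and 1279944 in tumour bearing 17 and 22, a difference of 1.82-fold. The type I genes listed above 0 in tumour bearing 21 differed by 3.13-fold to 9.99-fold. After division by the column totals, a step added after the values were seen, tumour bearing 21 was the lowest of the tumour bearing mice in 18 of 18 type I, 4 of 5 interferon gamma, 1 of 6 class I and 1 of 5 class II genes. For untreated 7 these columns differed from the counts and depended on scaling. As deposited, untreated 7 was above untreated 4 in 34 of 34 members, and B2m was listed at 2638 in untreated 7 and 2510 in untreated 4, with column totals of 987367 and 700323. After division by the totals, untreated 7 was below untreated 4 in 5 of 6 class I genes, as in the counts, but above it in 4 of 5 class II and 4 of 5 interferon gamma genes, unlike in the counts.

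**Figure D5:**
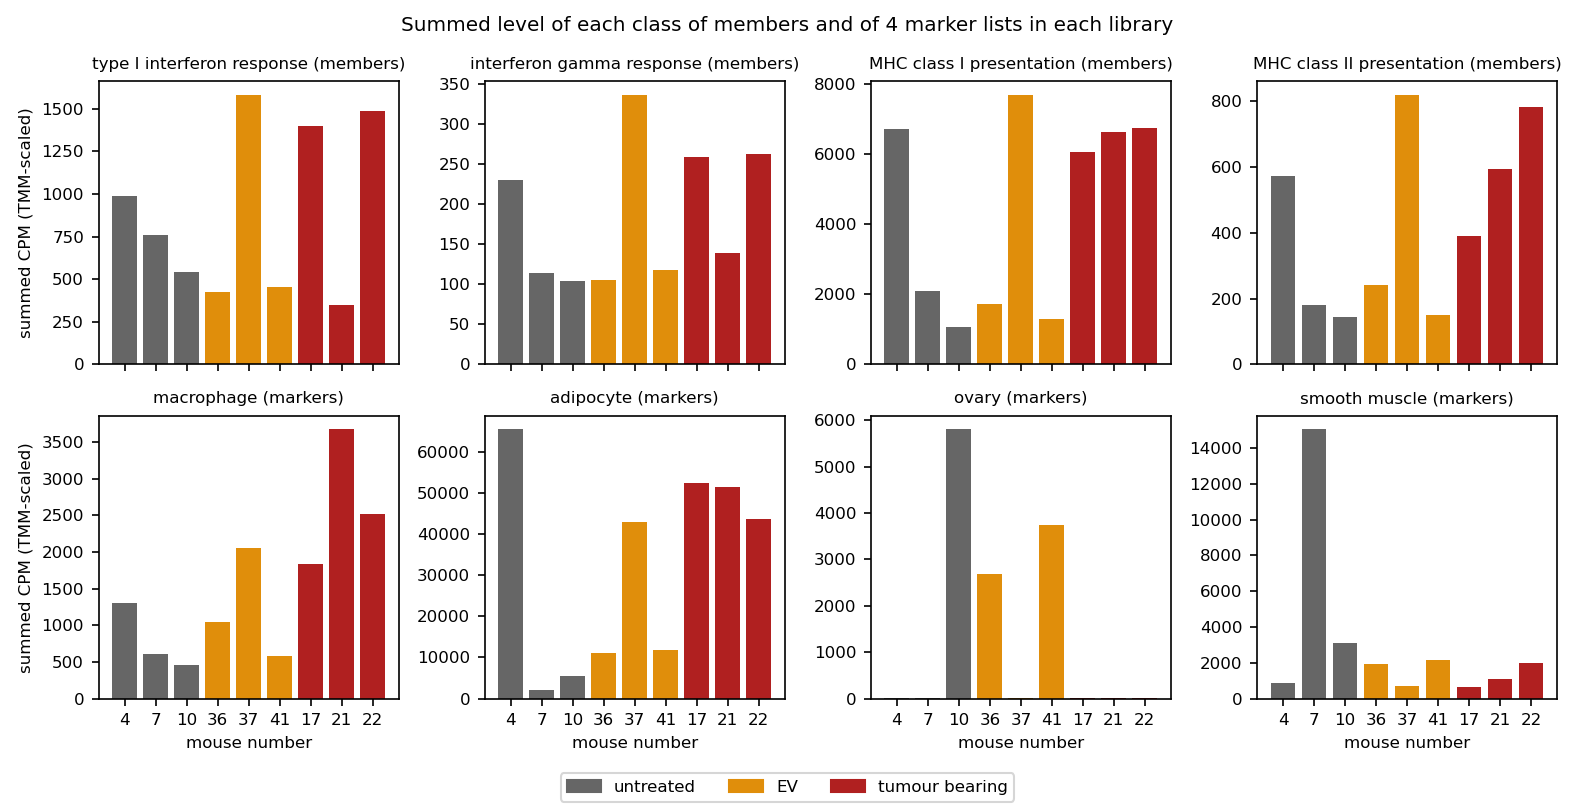
Summed CPM of the members of each class (upper row) and of the macrophage, adipocyte, ovary and smooth muscle markers (lower row) in each library, bars coloured by group and labelled by mouse number. The class I bars are high in the 5 libraries whose adipocyte bars are high, whereas the type I bar of tumour bearing 21 is the lowest of the 9 and its macrophage bar the highest.

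Marker genes of the cells that could carry these transcripts moved in part with the MHC classes. The class II sum was 572, 180 and 144 CPM in untreated 4, 7 and 10, 242, 819 and 149 CPM in EV 36, 37 and 41, and 390, 595 and 782 CPM in tumour bearing 17, 21 and 22. The sum of 12 macrophage markers was 1307, 601 and 461 CPM, 1040, 2051 and 584 CPM and 1840, 3672 and 2513 CPM in the same order. Both sums were lowest in untreated 10 and above their untreated 4 level in EV 37, tumour bearing 21 and tumour bearing 22. In tumour bearing 17 the macrophage sum was above that of untreated 4 and the class II sum below it, and in tumour bearing 21 the class II sum was close to that of untreated 4 while the macrophage sum was far above it. All 12 macrophage markers were separated between tumour bearing and untreated mice, where 11.8% of all genes tested were, in either direction. Their median log2 difference was 1.73, and none passed edgeR's adjusted p of 0.05 (lowest 0.299). Adgre1, the macrophage surface marker F4/80, was at 51.5, 20.9 and 17.3 CPM, at 57.6, 85.1 and 33.4 CPM and at 82.1, 356 and 113 CPM. Mrc1, another of the 12, was at 102, 78.05 and 26.1 CPM, at 54.7, 153 and 33.1 CPM and at 228, 185 and 313 CPM. The sum of 10 dendritic cell markers was 34.4 to 161 CPM, lowest in untreated 7 and highest in tumour bearing 22, with Itgax between 0.794 (EV 41) and 7.20 CPM (EV 37). Endothelial markers, whose cells also carry class I, summed to 828.6 to 1375 CPM in the tumour bearing libraries and to 252.5 to 680.4 CPM in the others. The part of each of these cell types in the levels of the 34 genes was not tested.

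Upstream of the response, interferon transcripts themselves were nearly undetected. Of 21 interferon genes, 18 had 0 counts in all 9 libraries, among them all 14 interferon alpha genes and Ifng, which allows up to 0.104 to 0.174 CPM per library at a floor of 3 counts (counting error only). Ifnb1 was at 0.0431, 0.056 and 0.0488 CPM in EV 37, tumour bearing 17 and tumour bearing 22, which is 1 count in each, and at 0 in the other 6. These Ifnb1 values lie under the floor, so no difference between libraries was detectable. Ifne, another type I interferon, was above the floor in untreated 10 (0.302 CPM, 8 counts) and EV 36 (0.179 CPM, 5 counts). It had 2 counts in EV 41, 1 in untreated 7 and 0 in the other libraries. Ifnk, under the floor, had 1 count in EV 36, 2 in EV 37 and 0 in the others. No interferon gene passed the filter on low counts, so none was tested. Ifngr1, the ligand-binding chain of the interferon gamma receptor, was at 384 CPM in tumour bearing 21, the highest of the 9, against 47.9 to 301 CPM in the others. The type I receptor chain Ifnar1 stayed within 35.3 to 65.7 CPM in all 9.

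Of the 94 tested genes among 120 related genes that are not members, 0 passed edgeR's test in any comparison. For tumour bearing versus untreated, an unadjusted p under 0.05 was reached by 1 of 15 receptor and signalling genes, 2 of 11 sensors and adaptors, 0 of 25 further type I genes, 1 of 15 further interferon gamma genes, 1 of 16 further class I genes and 3 of 12 further class II genes, beside 11.9% of all genes. For tumour bearing versus untreated, DESeq2 called 2.43% of all genes. Of the related genes it called 1, Tlr9, the endosomal DNA sensor (2.35 ± 0.65, log2, SE; DESeq2 adjusted p = 0.0137). In edgeR its change was 2.37 ± 0.67 (adjusted p = 0.418), and over the other alternatives its adjusted p ran from 0.0955 to 1.00. It was at 1.51, 1.24 and 0.490 CPM in the untreated mice, at 1.79, 2.84 and 0.794 CPM in the EV mice and at 4.93, 3.77 and 8.15 CPM in the tumour bearing mice, a low level with no overlap between tumour bearing mice and the others. Such separation was seen in 11.8% of all genes for tumour bearing versus untreated and in 25.2% for tumour bearing versus EV. Among 25 further type I response genes, 22 were lower in tumour bearing 21 than in both other tumour bearing mice, and 15 were at least 2-fold below their mean. Ifit3b was 10.8-fold and Cmpk2, a nucleotide kinase beside Rsad2, 6.89-fold below that mean, while Ifitm1 was higher in tumour bearing 21 than in both. The low level was not particular to the type I lists: of 15 tested further interferon gamma genes, 13 were lowest in tumour bearing 21 among the tumour bearing mice and 9 were at least 2-fold below the mean of the others. Among 16 further class I genes the count was 6, and among 12 tested further class II genes it was 0. Ctss, the protease that trims Cd74, was highest in tumour bearing 21 at 212 CPM, against 25.2 to 128 CPM in the other 8.

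Promoter sequences are shown as background on the elements near the gene starts, and a link between these elements and the levels was not tested. RefSeq's promoter table (GRCm38.p6) held 28 of the 34 genes, each from 250 bases before to 50 after the gene start, and Mx1, Oas2, Usp18, H2-Ab1, Cd74 and Ciita were not among them. The ISRE core GAAANNGAAA, searched on both strands, was in 10 of 15 type I promoters, 3 of 5 interferon gamma promoters, 1 of 6 class I promoters and 0 of 2 class II promoters, where 3.99% of the 27025 promoters of the table held it. The 10 were those of Ifit1, Ifit3, Isg15, Stat2, Oas1a, Oas3, Rsad2, Bst2, Ifih1 and Ddx58. Capitals mark the matches in the windows of Ifit1 (chr19:34640760-34640838, plus strand), which held 2, and of Isg15 (chr4:156200850-156200921, minus strand), which held 3 that overlap each other. B2m (chr2:122147523-122147582, plus strand) was the only class I gene with a match.
Ifit1: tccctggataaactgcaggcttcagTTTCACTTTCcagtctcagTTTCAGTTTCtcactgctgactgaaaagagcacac
Isg15: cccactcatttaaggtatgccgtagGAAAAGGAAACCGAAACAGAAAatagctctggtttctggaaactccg
B2m: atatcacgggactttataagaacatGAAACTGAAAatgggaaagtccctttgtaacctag

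The Y box CTGATTGG, the element of class II promoters that the factor NF-Y binds, was in 0 of 15 type I promoters, 2 of 5 interferon gamma promoters (Cxcl9 and Cxcl10), 4 of 6 class I promoters and 2 of 2 class II promoters, searched on both strands, where 4.70% of all promoters held it. It began 51 bases before the start of H2-Aa (chr17:34287842-34287899, minus strand) and 62 bases before that of H2-Eb1 (chr17:34305780-34305837, plus strand). In H2-D1 (chr17:35263016-35263073, plus strand) the match lay on the other strand. Tap1 and Psmb9 are transcribed away from each other, and 1 match lay in the window both promoters share (chr17:34187309-34187366, shown on the plus strand, that of Tap1). The GAS core TTCNNNGAA was in 5 of the 28 promoters (Ifit2, Irf1, Oas1a, Bst2 and Psmb8), where 9.55% of all promoters held it. A match is a stretch of letters in this window and no evidence of binding.
H2-Aa: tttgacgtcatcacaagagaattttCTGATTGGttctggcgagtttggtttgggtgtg
H2-Eb1: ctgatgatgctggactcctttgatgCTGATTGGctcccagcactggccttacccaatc
H2-D1: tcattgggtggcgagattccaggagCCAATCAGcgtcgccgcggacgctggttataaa
Tap1: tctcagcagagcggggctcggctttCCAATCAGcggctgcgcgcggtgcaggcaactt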

How the data were processed

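RNA of eWAT from 9 mice was sequenced in 1 library each. The authors deposited 1 table of 53700 Ensembl gene IDs, which holds the estimated counts that RSEM gave per gene. The columns named TPM that the authors deposited beside them are treated as a score of unknown scaling, because their totals differed between libraries (697082 to 1281345). The study names SeqPrep, Sickle, HISAT2, StringTie and RSEM, and the submitters' processing notes name Bowtie 0.12.2 with mm8 and mm9, so the build is uncertain. No source used here gives the annotation. Both TruSeq and SMARTER library kits appear in the labels. Every per-sample column was mapped to a mouse (0 left over).

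Symbols were found for 52093 IDs. Counts were rounded, filtered (filterByExpr), scaled by TMM and tested across all genes with edgeR 4.0.16 (quasi-likelihood, all 9 libraries in 1 fit, R 4.3.3), with Benjamini-Hochberg adjustment at 0.05. The fit was also tried on counts simulated from the means and spreads of these libraries, and the outcome is not given here. Totals were 20097743 to 26149300 counts, and the biological coefficient of variation was 62.8%. The SE is the absolute log2 fold change over the square root of F. Nothing says whether the mice of a group shared a cage or litter. Alternatives were DESeq2 1.42.0, limma 3.58.1 on log2(score + 1), RLE or no scaling, no filter, only the 2 groups compared, inferred batches as a term, and leaving out libraries. No gene list or rule was chosen blind: the members and lists were chosen with earlier results of these data known. Values per library are given for the members of each class with the smallest p, and further ones (among them Ifit1, Ifit3, Isg15, Irf7, Usp18, Ddx58, B2m, H2-K1 and Cxcl9), the context genes and the comparisons of tumour bearing 21, EV 37 and untreated 7 were picked after their values were seen. Scripts were run in Python 3.11.15 (pandas 2.3.3, numpy 2.4.6, matplotlib 3.10.9). The result of 1 related gene is not reported here.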

Additional observations from a re-analysis of the deposited data

How the results depend on the processing

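The count of members called was 0 in each comparison under all 18 alternatives, where the lowest adjusted p of a member was 0.582 for EV versus untreated, 0.112 for tumour bearing versus untreated and 0.176 for tumour bearing versus EV. The sign of the fitted change differed under at least 1 alternative for 32, 27 and 32 of the 34 genes in these comparisons. Counts over all genes moved more. For EV versus untreated (1 gene called), they were 4 with no filter, 16 with DESeq2, 6 with limma, 0 with only the 2 groups compared, with inferred batches as a term, without the ovary libraries and without the ovary and smooth muscle libraries, and 0 to 2 when 1 library was left out. For tumour bearing versus untreated (39 genes), they were 729 with DESeq2, 1 with limma, 4 with inferred batches, 0 without the ovary libraries, with or without the smooth muscle library, and 8 to 38 when 1 library was left out. For tumour bearing versus EV, with 46 genes called, the counts were 876 with DESeq2, 111 with only the 2 groups compared, 8 with limma, 27 with inferred batches, 0 without the ovary libraries, with or without the smooth muscle library, and 0 to 70 when 1 library was left out. The cause was not tested. Tests without the ovary libraries rest on fewer samples, and with inferred batches as a term tumour bearing 21 alone sets the tumour bearing level. No paired analysis was possible because the replicate numbers are mouse numbers that no 2 groups share.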
